A study of Rattus norvegicus with 57 samples.

Results

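Sfrp2 and 6 other genes of the Wnt pathway were followed in kidneys of rats dosed with cisplatin, a platinum-based cancer drug that damages the renal tubule. The 7 genes were Sfrp1, Sfrp2, Sfrp4, Frzb, Wif1, Dkk3 and Wnt4. They were found as the 15 probe sets of the array whose platform annotation gives one of these symbols, and where a gene has several, the brightest on average stands for it. Sfrp2 was chosen by its measured values, because its signal fell at both doses in these same arrays, so its levels are given here as a description, with no test against controls. Of the 7 genes, 5 passed the filter on dim probe sets and are among the 11683 genes tested. Sfrp4 and Wnt4 did not pass it.

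Groups of male Han Wistar rats, 8 weeks old, received 0, 1 or 3 mg/kg cisplatin intraperitoneally on 1 occasion in saline. Kidneys were taken on day 3, 5, 8 or 26, and RNA came from a tissue homogenate enriched in cortex. Each of 57 Affymetrix Rat 230 2.0 arrays holds the RNA of 1 animal. There were 5 arrays at 3 mg/kg on every day, 5 at 1 mg/kg except 3 on day 5, and 5 for the saline controls except 4 on day 26, where the design text gives 6 animals per group.

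Wnt proteins are secreted signals that bind Frizzled receptors and the co-receptors Lrp5 and Lrp6, after which beta-catenin reaches the nucleus and works with Tcf and Lef factors on target genes. Secreted frizzled-related proteins (Sfrp1, Sfrp2, Sfrp4 and Frzb, also called sFRP3) carry a Frizzled-like domain and bind Wnts outside the cell, as does Wif1 through a different domain. In the kidney the pathway is best known from development, where Wnt4 drives the formation of nephrons in the mouse, and from injury, where its activity has been linked to both tubule repair and fibrosis.

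Promoter sequence from RefSeq (build GRCr8) was at hand for 4 of the 7 genes, and 2 are printed, because they belong to related secreted proteins of which 1, Sfrp2, was picked for its fall and the other, Frzb, did not pass the test in any comparison. Each run is the 250 bases before the gene's annotated start, read 5′ to 3′ on the gene's own strand, with every CG dinucleotide in capitals. Sfrp2 is read at chr2:171387286-171387535 on the plus strand, and Frzb at chr3:85772097-85772346 on the minus strand.
Sfrp2: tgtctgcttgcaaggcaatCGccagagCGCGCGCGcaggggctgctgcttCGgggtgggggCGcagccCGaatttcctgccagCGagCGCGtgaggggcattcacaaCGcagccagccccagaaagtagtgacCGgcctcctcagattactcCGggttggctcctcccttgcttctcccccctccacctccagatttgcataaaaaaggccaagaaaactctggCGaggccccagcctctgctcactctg
Frzb: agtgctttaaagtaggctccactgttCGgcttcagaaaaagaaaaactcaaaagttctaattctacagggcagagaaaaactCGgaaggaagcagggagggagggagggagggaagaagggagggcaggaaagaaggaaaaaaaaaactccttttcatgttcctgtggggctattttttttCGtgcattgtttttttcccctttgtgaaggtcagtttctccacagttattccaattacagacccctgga
The Sfrp2 window is 62.4% G and C with 15 CG dinucleotides, and the Frzb window is 43.6% G and C with 3. CTTTGA, 1 form of the core letters of sequences that Tcf and Lef factors bind, was searched on both strands. It is in neither window, nor in those of Wif1 and Wnt4, while 13.9% of 33469 rat promoters of the same length hold it. The form CTTTGT was not searched, and the printed Frzb window holds it. TATAAA, present in 12.9% of promoters, is in none of the 4 windows, and GGGCGG, present in 30.5%, is in those of Wif1 and Wnt4. No binding or methylation was measured here, and these letters describe the windows only.

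Signals are MAS5 intensities on a linear scale. Changes are differences of mean log2(signal + 16) with the standard error (SE) of a limma fit over all 12 groups. The added 16 makes the change of a dim gene smaller than its signal ratio. A gene was called when its adjusted p, by Benjamini-Hochberg over all genes tested, was under 0.05. Array medians lay between 20.3 and 26.2, replicate arrays of a group correlated at 0.961 to 0.993 across probe sets, and the ratio of the actin 3′ to 5′ control probe sets, a sign of RNA integrity, was between 4.47 and 8.58. The summed signal of 6 proximal tubule markers, the main cell type of the cortex, was 12352 to 14567 in 3 mg/kg kidneys on day 8 and 11675 to 13515 in controls.

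The member levels differed in how well the array could read them. Sfrp2 was above the filter threshold, a signal of 10.6 to 15.5 depending on the array, on 56 of 57 arrays, and Sfrp1, Frzb and Dkk3 were above it on all 57. Wif1 was above it on 9 arrays, with signals of 4.28 to 17.98. The probe sets of Sfrp4 and Wnt4 were above it on 0 arrays, with mean signals of 3.93 and 3.43, so neither gene gives a measured change. The 3 further probe sets of Dkk3 were also above it on 0 arrays.

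Sfrp2, which encodes a secreted Wnt-binding protein made mainly by stromal cells in many tissues, was lowest on day 8 after 3 mg/kg. The signals were 49.2, 8.33, 54.6, 28.0 and 14.2 in 3 mg/kg kidneys, against 219.6, 251, 279.9, 242 and 268 in control kidneys. Every treated animal was below every control, and the mean control signal was 8.16 times the mean treated signal. The change was -2.63 ± 0.27 (SE, n = 5 per group) on the log2 scale. Of all genes tested 6.95% had every treated animal below every control in this comparison, and since the comparison chose Sfrp2 nothing is read from its place among them.

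At 1 mg/kg on day 8 the Sfrp2 signals were 50.4, 174, 60.7, 130.0 and 167. All 5 animals were below the lowest control, a pattern seen in 0.907% of genes, and 1 of them lay within the range of the 3 mg/kg group while the other 4 lay between the groups. The change from control was -1.14 ± 0.27 (SE, n = 5 per group), and the 3 mg/kg group was a further -1.49 ± 0.27 from the 1 mg/kg group.

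Sfrp2 was already lower before day 8, by less. On day 5 the signals were 51.8, 124, 127, 142 and 117 in 3 mg/kg kidneys, against 246, 238, 343, 206 and 290.3 in controls, with no overlap (3.82% of genes lay wholly below controls) and a change of -1.17 ± 0.27. On day 3 they were 188, 63.0, 113, 165 and 99.8 in 3 mg/kg kidneys, against 174, 220.2, 219, 148 and 256 in controls. The day 3 groups overlapped, with 3 of 5 treated animals below all controls, and the change was -0.69 ± 0.27. On that day the actin ratio was 5.74 to 6.02 in 3 mg/kg kidneys and 4.48 to 5.08 in controls. With the ratio as a covariate the day 3 change was -0.60 ± 0.30. The lower dose gave a change of -0.48 ± 0.27 on day 3, with 3 of 5 animals below all controls, and -0.32 ± 0.31 on day 5, with 1 of 3.

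By day 26 Sfrp2 signals in both dosed groups overlapped those of the controls. They were 197, 105, 197, 152 and 195 in 3 mg/kg kidneys and 182, 188, 133 and 229 in control kidneys, a change of -0.12 ± 0.28 (95% interval -0.68 to 0.45). In the 1 mg/kg kidneys they were 144, 291, 182, 253 and 146, a change of 0.11 ± 0.28 (95% interval -0.46 to 0.68). The 3 mg/kg effect differed by 2.52 ± 0.39 between day 26 and day 8. In the controls, whose values also entered the choice of Sfrp2, day 26 was -0.45 ± 0.28 from day 8 and -0.14 ± 0.28 from day 3. The day 3 arrays differed from the others in Alb, the albumin gene. Its mean signal was 315 in day 3 controls, 514 at 1 mg/kg and 147 at 3 mg/kg that day. In controls of days 5, 8 and 26 it was 6.44, 2.51 and 3.20. The cause was not tested, and comparisons of day 3 with other days carry that limit.

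**Figure D1:**
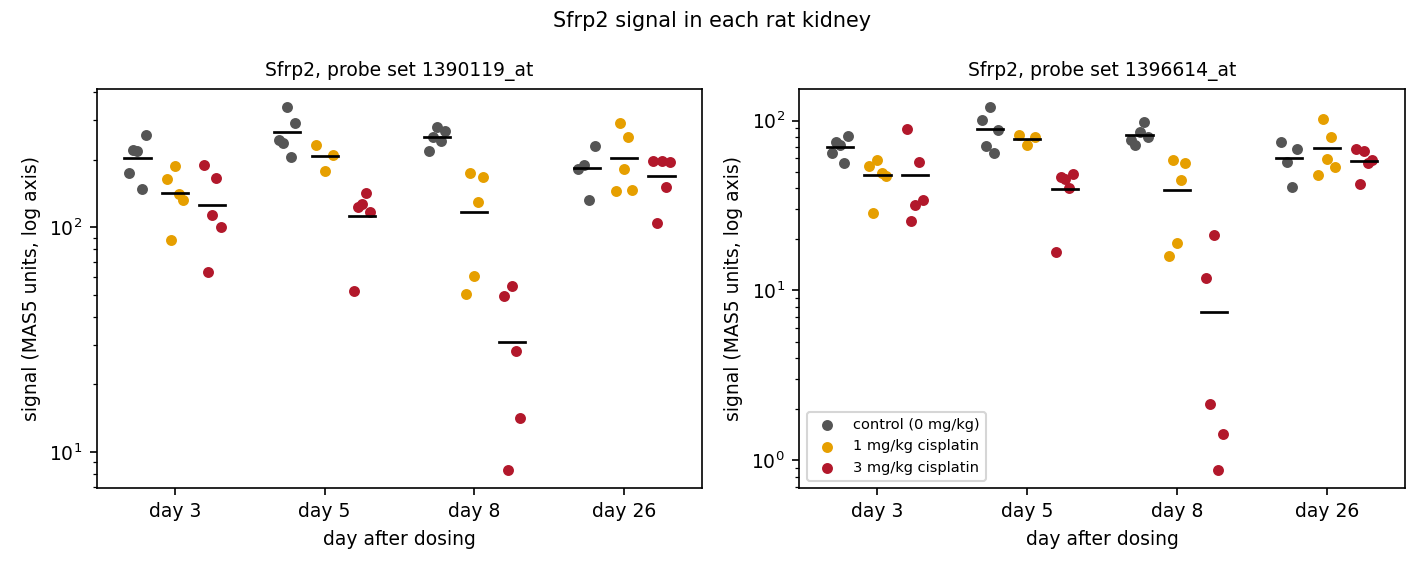
Sfrp2 signal (MAS5 units, log axis) in each animal on days 3, 5, 8 and 26, with control, 1 mg/kg and 3 mg/kg side by side, for its 2 probe sets. Points are animals and lines are group means; on day 8 the 3 mg/kg points lie at 8.33 to 54.6 in the left panel, below all controls.

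Across the 12 groups the mean Sfrp2 signal ran from 30.9 at 3 mg/kg on day 8 to 264.5 in day 5 controls. Ordered by mean log2(signal + 16), neighbouring groups were mostly closer than their spread. The step from the lowest group, 3 mg/kg on day 8, to 1 mg/kg on day 8 was 1.49 on the log2 scale against a larger group SD of 0.71. The step from 1 mg/kg on day 5 to day 8 controls, 0.27 against an SD of 0.18, was the other that exceeded the SD.

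A second Sfrp2 probe set was low in the same groups. Its day 8 signals were 11.8, 2.15, 21.3, 0.881 and 1.43 in 3 mg/kg kidneys, against 76.6, 71.7, 86.1, 98.6 and 79.9 in control kidneys. In 1 mg/kg kidneys they were 15.98, 58.8, 18.9, 44.8 and 56.6. Over the 57 arrays the 2 probe sets correlated at r = 0.976, a description, since both read the same RNA on the same arrays.

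The animals of 1 group did not share 1 level of Sfrp2 or of injury transcripts. At 1 mg/kg on day 8 Havcr1, which encodes the tubule injury protein KIM-1, had signals of 912, 32.4, 1085, 32.9 and 17.6 in replicates 1 to 5, and the 2 high animals were the 2 with the lowest Sfrp2. The 3 animals with Havcr1 at 17.6 to 32.9 nonetheless had Sfrp2 at 130.0 to 174, below the lowest control at 219.6. The control kidneys had Havcr1 at 1.73 to 10.2.

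Among the 3 mg/kg animals of day 8 the level of Umod varied widely too. Umod, the uromodulin gene of the thick ascending limb, had signals of 785, 2.68, 921, 21.6 and 5.37 in replicates 1 to 5, and replicates 1 and 3, with the highest Umod, also had the highest Sfrp2 on both of its probe sets. Among the other 3 animals, where several of these signals lie under the filter threshold, no order is read. Havcr1 had signals of 2177, 829.5, 679.7, 1581 and 1639.5 in the same animals. Of the replicates with the highest Sfrp2, replicate 3 had the lowest Havcr1 but replicate 1 the highest, so Havcr1 did not follow Sfrp2 in this group. On day 5 the 3 mg/kg animal with the lowest Sfrp2, at 51.8, also had the highest Havcr1, at 1275. Replicate 3 of that group, with the next highest Havcr1 at 1128, had Sfrp2 above the group mean of 112.

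**Figure D2:**
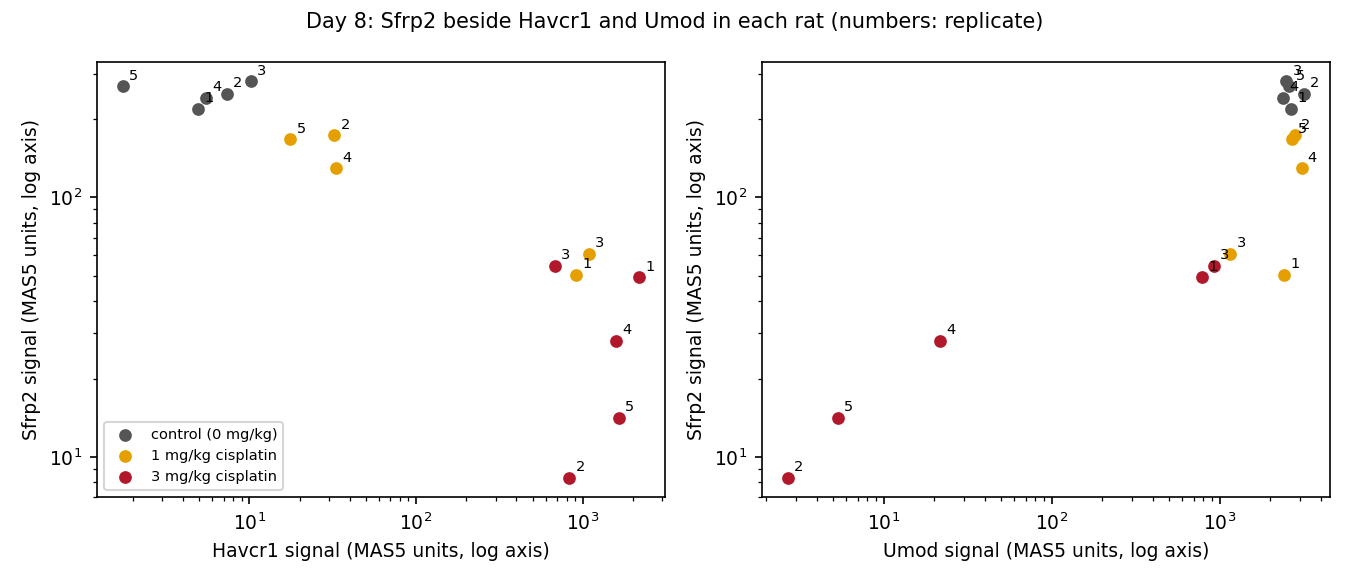
Sfrp2 signal on day 8 against Havcr1 and Umod in the same animals (MAS5 units, log axes), with control, 1 mg/kg and 3 mg/kg animals marked by colour and replicate number. The 1 mg/kg animals split into 2 with Havcr1 at 912 and 1085 and 3 at 17.6 to 32.9.

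Markers of the loop of Henle, distal tubule and collecting duct were lower in the same kidneys on day 8. At 3 mg/kg that day 37.3% of all genes were called, 21.4% higher and 15.9% lower, so counts in such short lists are read beside those shares. Of 6 proximal tubule markers 1 rose and 1 fell, 33.3% of the list and near the share of all genes (median change 0.07). Of 4 loop of Henle and distal tubule markers all 4 fell at 3 mg/kg, and their summed signal was 643 to 4146 in 3 mg/kg kidneys against 7488 to 8585 in controls. Of 5 collecting duct markers 3 fell, with sums of 1272 to 3395 against 3489 to 4088. The inner medulla list did not share this: of 3 markers 1 rose and 1 fell (median change 0.21), with sums of 309 to 455 against 319 to 439. Of 4 endothelial markers 2 fell (median change -0.23), Emcn and Vwf, with sums of 846 to 968 in 3 mg/kg kidneys and 956 to 1083 in controls. The fibroblast list went the other way: 4 of 8 tested markers rose and 0 fell, 50% of the list (median change 0.30). Its sums were 3092 to 4349 in 3 mg/kg kidneys against 2253 to 2585 in controls. The markers that rose included decorin (Dcn, 1.21 ± 0.17), lumican (Lum, 0.41 ± 0.14), Pdgfra (0.34 ± 0.09) and Pdgfrb (0.32 ± 0.12). The other tested markers of this list were not called. Of 10 fibroblast markers, 8 passed the filter, and Postn and Mfap5 did not. On day 5, when Sfrp2 was already below all controls, the sums of the loop and distal markers were 7049 to 7808 in 3 mg/kg kidneys against 8486 to 9364 in controls, and those of the fibroblast markers were 2334 to 2924 against 2123 to 2605. At 1 mg/kg on day 8 the sums were 4614 to 8561 for the loop and distal markers and 1984 to 3609 for the fibroblast markers, with both ranges overlapping the controls given above. In that group the actin ratio of replicate 1, at 8.58, was the highest of all arrays, and with the ratio as a covariate the Sfrp2 change was -1.09. The part of these shifts in the change of Sfrp2 was not tested. In a tissue homogenate, fewer cells of a type and less RNA per cell cannot be told apart.

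The genes whose pattern was most like that of Sfrp2 were found by Pearson correlation of log2(signal + 16) over the 57 arrays, which share the treatment groups. The 6 highest were Calb1, the calcium-binding protein calbindin of the distal tubule (r = 0.86), Tex14 (0.85), the protease inhibitor gene Pzp (0.84), Prss8, the sodium channel-activating protease prostasin (0.83), Prps2, a nucleotide precursor synthetase (0.83), and the potassium channel subunit Kcnab1 (0.83). Calb1 had a signal of 1001 ± 537 (SD) in 3 mg/kg kidneys on day 8 and 2606 ± 266 in controls. Calb1 at 1 mg/kg on day 8 averaged 2518 ± 470 (SD, n = 5), a change of -0.06 ± 0.16 from control (limma adjusted p = 0.911), where Sfrp2 was at -1.14.

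Taken as deviations from each group's mean, which leave out the groups themselves, the likeness was weaker and the list was partly different. The 6 highest were then Ankrd46 (r = 0.65), Tex14 (0.63), the kidney cadherin Cdh16 (0.62), Igfbp5, which encodes a binding protein for insulin-like growth factors (0.59), Amer2, whose product binds the beta-catenin regulator Apc (0.59), and Stard8 (0.58). Havcr1 had r = -0.80 over the arrays and -0.44 over deviations, and Umod 0.74 and 0.47. The other members were far from Sfrp2 over deviations, with 0.08 for Sfrp1, -0.00 for Dkk3, -0.03 for Frzb and 0.21 for Wif1.

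Of the other 4 measured members, 2 were called in the comparison of 3 mg/kg with control on day 8, both higher, where 37.3% of all genes were called, 21.4% higher and 15.9% lower. In limma 0 of the 4 were called at 3 mg/kg on day 3 (9.85% of genes called), day 5 (8.8%) and day 26 (0.753%), and 0 at 1 mg/kg on day 3 (0.0942%), day 5 (0.0171%), day 8 (0.522%) and day 26 (0.00856%). At an unadjusted p under 0.05 the counts at 3 mg/kg were 1, 4, 2 and 1 on days 3, 5, 8 and 26, and those at 1 mg/kg were 0, 0, 3 and 0. Of all 11683 genes, 2993, 2712, 5341 and 1857 were under 0.05 at 3 mg/kg on those days. At 1 mg/kg 704, 376, 1510 and 776 were, so nothing is read from the unadjusted counts of so few members.

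**Figure D3:**
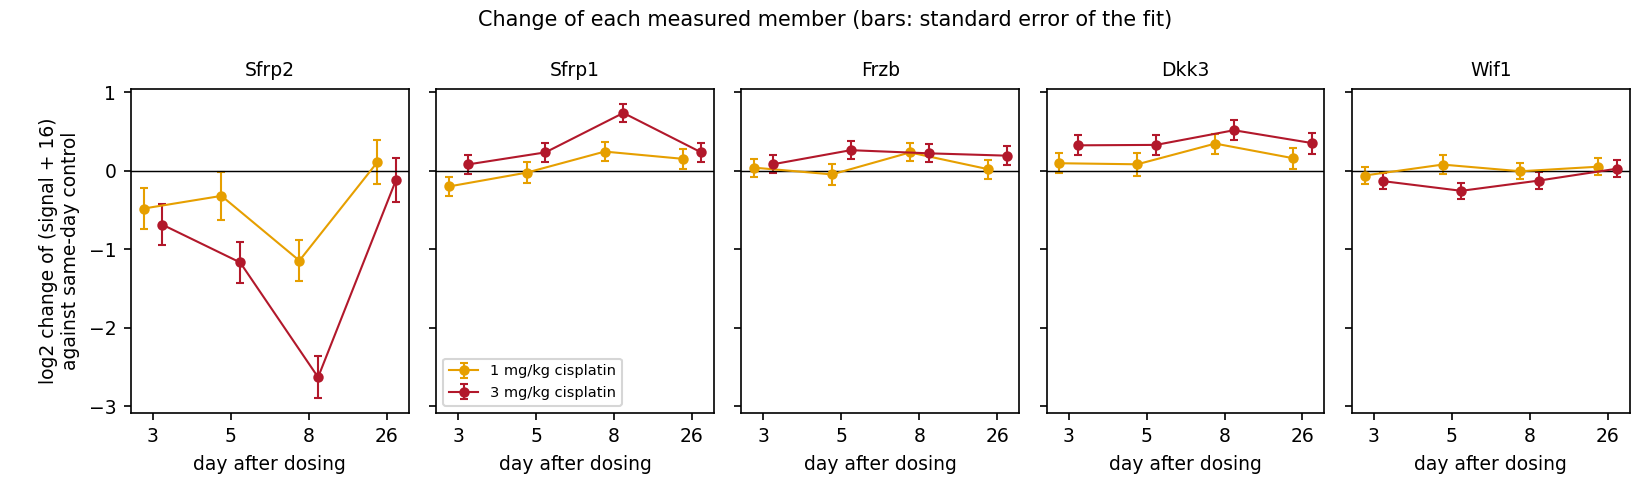
Change of each measured member (log2 of signal + 16, dosed minus same-day control) on days 3, 5, 8 and 26 (days evenly spaced), with 1 mg/kg and 3 mg/kg as separate lines and bars for the standard error of the fit. Sfrp2 reached -2.63 on day 8 at 3 mg/kg, while Sfrp1 (0.74) and Dkk3 (0.52) were above control.

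Sfrp1, the closest relative of Sfrp2 in this set and likewise a secreted Wnt-binding protein, rose at the dose and day at which Sfrp2 was lowest. On day 8 its signals were 342, 237, 394, 300.4 and 271 in 3 mg/kg kidneys, against 201, 182, 165, 158 and 176 in control kidneys. All 5 treated animals were above all controls, as 9.41% of genes were in this comparison, and the change was 0.74 ± 0.12 (limma adjusted p = 1.57e-06, n = 5 per group). Sfrp1 signals at the lower dose on day 8 were 247, 177, 264, 195 and 187, with 2 of 5 animals above all controls. That change, 0.25 ± 0.12, did not pass (limma adjusted p = 0.369). The 3 mg/kg group was 0.49 ± 0.12 above the 1 mg/kg group (limma adjusted p = 0.0013). In that comparison 23.1% of genes were called, and fitting only the pair of dose groups gave an adjusted p of 0.0675.

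Sfrp1 was not called on the other 3 days. At 3 mg/kg its change was 0.08 ± 0.12 on day 3 (limma adjusted p = 0.704), 0.24 ± 0.12 on day 5 (0.215) and 0.24 ± 0.12 on day 26 (0.345). The effect on day 8 was larger than that on day 5 by 0.50 ± 0.17 (limma adjusted p = 0.0304 for the difference, with 16.3% of genes called), and that on day 26 was smaller than that on day 8, with a difference of -0.50 ± 0.17 (adjusted p = 0.0371, with 15% of genes called). Both differences depended on single animals and on the probe set: with the mean of the probe sets the adjusted p was 0.369 for the first and 0.0719 for the second. The first was not called without control replicate 3 or 4 of day 5, control replicate 4 of day 8, 3 mg/kg replicate 2 or 5 of day 5 or 3 mg/kg replicate 3 of day 8 (highest adjusted p = 0.0688, difference at least 0.41). The second was not called without control replicate 3 or 4 of day 8, control replicate 1 or 2 of day 26, 3 mg/kg replicate 1 or 3 of day 8 or 3 mg/kg replicate 2 or 3 of day 26 (highest adjusted p = 0.119, at a difference of -0.40).

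The other Sfrp1 probe sets were higher on day 8 by different amounts. The second averaged 82.7 ± 19.6 (SD, n = 5) in 3 mg/kg kidneys and 69.4 ± 7.29 in controls, and those groups overlapped. Its change at 3 mg/kg was larger on day 5, at 0.51 ± 0.18 (SE), than on day 8, at 0.19 ± 0.18, the reverse of the order given above. The third averaged 18.6 ± 5.47 in 3 mg/kg kidneys and 10.4 ± 4.12 in controls, close to the filter threshold.

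Frzb, the third frizzled-related gene that could be measured, was called in 0 of the 8 comparisons with control in limma, with 2 at an unadjusted p under 0.05. On day 8 its signals were 357, 249.9, 344, 384 and 380.4 in 3 mg/kg kidneys, against 284, 295, 244, 287 and 337 in control kidneys. In the treated group 4 of 5 animals were above all controls and replicate 2 was far below the other 4, and the change was 0.22 ± 0.11 (limma adjusted p = 0.119, n = 5 per group). Without that animal it was 0.33 (limma adjusted p = 0.0205). On day 26 all 5 treated animals, at 305 to 397, were above all 4 controls, at 282 to 301, a separation that 3.62% of genes showed, with a change of 0.19 ± 0.12 (limma adjusted p = 0.435). A second Frzb probe set averaged 144 ± 11.3 (SD, n = 5) in 3 mg/kg kidneys on day 8 and 123 ± 11.8 in controls. On day 26 it did not separate the groups, at 119 to 164 in 3 mg/kg kidneys and 126 to 141 in controls (0.04 ± 0.09).

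Dkk3 belongs by sequence to the Dickkopf family of secreted proteins, whose best-known member, Dkk1, blocks the co-receptors Lrp5 and Lrp6. It was dim but higher at 3 mg/kg. On day 8 its signals were 43.1, 25.2, 33.4, 32.5 and 29.6 in 3 mg/kg kidneys, against 26.0, 16.9, 14.8, 15.0 and 17.4 in control kidneys. Of the treated animals 4 of 5 were above all controls, and replicate 2 at 25.2 lay just under the highest control. The change was 0.52 ± 0.13 (limma adjusted p = 0.000998, n = 5 per group).

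On the other days the Dkk3 change at 3 mg/kg was of a like size and did not pass. It was 0.33 ± 0.13 on day 3 (limma adjusted p = 0.0894), 0.33 ± 0.13 on day 5 (0.0908) and 0.35 ± 0.13 on day 26 (0.16). The adjusted p was 0.0476 on day 3 without control replicate 2 and 0.037 on day 5 without control replicate 2. The effects did not differ detectably between days, with 0.19 ± 0.18 for day 8 minus day 5 (limma adjusted p = 0.504, 95% interval -0.17 to 0.55). Dkk3 at 1 mg/kg was at 0.35 ± 0.13 on day 8 (adjusted p = 0.217).

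Wif1, whose product binds Wnts directly, was at or under the filter threshold on most arrays, so its values bound little. On day 5 the signals were 5.69, 8.04, 9.23, 6.25 and 10.8 in 3 mg/kg kidneys, against 10.02, 10.5, 15.3, 10.6 and 17.0 in control kidneys. In that comparison 4 of 5 treated animals were below all controls, and the change of -0.25 ± 0.10 did not pass (limma adjusted p = 0.115, n = 5 per group). On day 8 it was -0.12 ± 0.10 (adjusted p = 0.362).

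**Figure D4:**
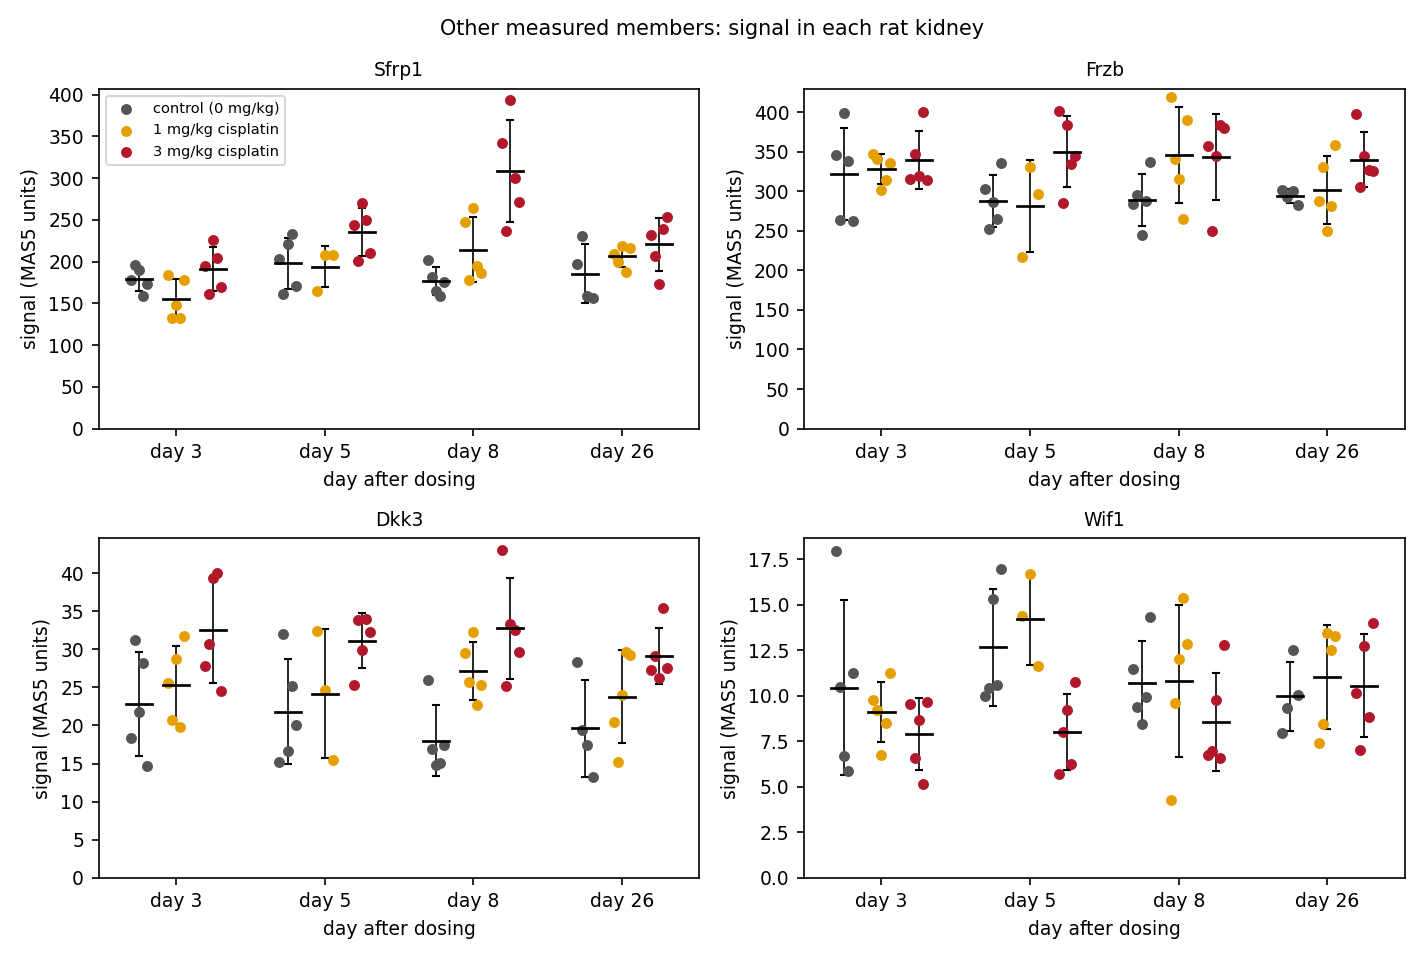
Signal of Sfrp1, Frzb, Dkk3 and Wif1 in each animal (MAS5 units), with control, 1 mg/kg and 3 mg/kg side by side on days 3, 5, 8 and 26. Points are animals and lines are group means; on day 8 the Sfrp1 signals of 3 mg/kg kidneys lie at 237 to 394, above all controls.

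The smooth muscle and pericyte list and the macrophage list also rose on the day when Sfrp1 and Dkk3 were called. At 3 mg/kg that day 37.3% of all genes were called, 21.4% of them all being called higher, and lists of 5 and 4 markers are too short to weigh closely against that share. Of 5 smooth muscle and pericyte markers 3 rose, with summed signals of 502 to 795 in 3 mg/kg kidneys and 228 to 303 in controls, led by Tagln (1.53 ± 0.22) and Acta2 (0.65 ± 0.11), while a further one, Cnn1, did not pass the filter. Of 4 macrophage markers 3 rose, with sums of 224 to 356 in 3 mg/kg kidneys and 168 to 214 in controls. Their part in the rise of Sfrp1 and Dkk3, and that of the fibroblast markers given above, was not tested.

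The wider pathway was read from lists of 102 further genes, of which 78 have a probe set and 61 passed the filter. In 3 mg/kg kidneys on day 8, 18 of the 61 rose and 9 fell, together 44.3% of the lists and 37.3% of all genes. The median change was 0.09 against 0.04 for all genes. Day 3 had 3 higher and 3 lower at that dose, day 5 had 4 higher and 1 lower, and day 26 had 5 higher and 0 lower. As shares of the 61 genes these were 9.84% on day 3, 8.2% on day 5 and 8.2% on day 26, against 9.85%, 8.8% and 0.753% of all genes, so that the first 2 were near the share of all genes. After the lower dose 1 gene, Myc, rose on day 8, and in limma 0 were called on days 3, 5 and 26, with 3, 1 and 8 at an unadjusted p under 0.05. Of all 11683 genes 704, 376 and 776 were under 0.05 on those 3 days.

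Among the Wnt ligands 3 of 7 rose on day 8 at 3 mg/kg and 0 fell, 42.9% of the list, where 37.3% of all genes were called. The control signals of Wnt7a and Wnt6 averaged below the filter threshold, so that their changes rest on a control side near background. As the filter asks for at least 3 arrays above its threshold, such genes can enter the test through the dosed kidneys alone. Their calls are given with that limit. Wnt7a had a mean signal of 15.4 in 3 mg/kg kidneys and 5.67 in controls, a change of 0.54 ± 0.08 (limma adjusted p = 3.25e-07). Wnt6 was at 20.8 against 9.23 (0.53 ± 0.20, adjusted p = 0.0318) and Wnt2b at 27.7 against 20.8 (0.25 ± 0.07, adjusted p = 0.00642). Wnt6 lost its call in 7 of 22 alternatives, among them leaving out control replicate 4 or 5 or 3 mg/kg replicate 3 or 5 (highest adjusted p = 0.135). The Wnt2b call of day 8 was lost with quantile normalization and with the compared groups alone (highest adjusted p = 0.109). Wnt2b had moved the other way on day 5, at -0.26 ± 0.07 (adjusted p = 0.0167), and was higher on day 3 (0.22 ± 0.07, adjusted p = 0.0431). The day 5 call was lost without 3 mg/kg replicate 1 or 3, and the day 3 call held in 8 of 22 alternatives. Wnt1 rose on day 3 by 0.43 ± 0.13 (adjusted p = 0.0226), a call lost with quantile normalization and without control replicate 1 or 3 mg/kg replicate 4 or 5.

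Among receptors and co-receptors 1 of 12 rose on day 8 and 3 fell, 33.3% of the list, which is near the share of all genes. Ptk7, a co-receptor better known from the planar polarity branch, had a mean signal of 125.9 in 3 mg/kg kidneys and 91.4 in controls (0.40 ± 0.12, limma adjusted p = 0.00576). Lrp5 fell by 0.34 on the log2 scale (adjusted p = 0.0136), Fzd4 by 0.26 (adjusted p = 0.00191) and Fzd1 by 0.26 (adjusted p = 0.0079). Fzd1 had also fallen on day 3, by 0.33 (adjusted p = 0.00545). That day the actin ratio was 5.89 ± 0.10 (SD, n = 5) in 3 mg/kg kidneys and 4.66 ± 0.25 in controls, and with the ratio as a covariate the adjusted p of Fzd1 was 0.0656. On day 8 the call of Lrp5 was lost without control replicate 1 or 3 mg/kg replicate 2, with the mean of probe sets and with array weights, and that of Fzd1 without 3 mg/kg replicate 4. With the compared groups alone Lrp5, Fzd1 (adjusted p up to 0.137) and Ptk7 (0.0638) were not called.

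Among the other secreted and secretion-linked modulators 1 of 6 rose and 1 fell on day 8. That is 33.3% of the list, where 37.3% of all genes were called, and not every gene of this list encodes a secreted protein. Wls, the carrier that Wnts need for secretion, had a mean signal of 388 in 3 mg/kg kidneys and 268 in controls (0.51 ± 0.12, limma adjusted p = 0.000924). Sostdc1, a secreted antagonist of bone morphogenetic proteins and Wnts made in the distal tubule, was at 718 against 1006 (-0.53 ± 0.17, adjusted p = 0.0131), a call lost with the compared groups alone and without 3 mg/kg replicate 2 or 5.

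Inside the cell 5 of 24 genes rose and 4 fell on day 8, 37.5% of the list and so the same as the share of all genes. Lef1, a transcription factor partner of beta-catenin, had a mean signal of 15.2 in 3 mg/kg kidneys and 8.68 in controls, below the filter threshold (0.35 ± 0.10, limma adjusted p = 0.00365), and was not called with the compared groups alone (adjusted p = 0.0798). Nkd2, a feedback inhibitor that binds Dishevelled, was at 10.4, again under the threshold, against 19.9 (-0.45 ± 0.16, adjusted p = 0.0198), and it had fallen on day 3 too (-0.55 ± 0.16, adjusted p = 0.0179). The day 8 call of Nkd2 was lost with array weights, with the compared groups alone and without control replicate 1 or 2 or 3 mg/kg replicate 4, and the day 3 call with no offset and without control replicate 5.

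Genes often listed as Wnt targets had the highest share called, 8 higher and 1 lower of 12 on day 8, with a median change of 0.42. That is 75% of the list, where 37.3% of all genes were called, 21.4% higher and 15.9% lower, with a median change of 0.04. Myc, a growth regulator, had a mean signal of 166 in 3 mg/kg kidneys and 41.5 in controls (1.62 ± 0.22, limma adjusted p = 4.66e-08). The matrix gene Fn1 was at 539 against 238 (1.11 ± 0.15) and the hyaluronan receptor Cd44 at 54.4 against 24.5 (0.78 ± 0.15). The 1 target called lower was Bambi (-0.34, limma adjusted p = 0.0204), a call that held in 16 of 23 alternatives. Genes of this list have many other regulators. Axin2, a feedback inhibitor of beta-catenin and the most widely used readout of the pathway, was singled out after its value was seen. It was at 30.2 in 3 mg/kg kidneys and 19.2 in controls on day 8 (0.40 ± 0.11, limma adjusted p = 0.00329), with 4 of 5 animals above all controls. On day 5 Axin2 was at 0.27 ± 0.11 (adjusted p = 0.11) and on day 3 at -0.11 ± 0.11 (adjusted p = 0.573). Wnt7a, Fzd4, Wls, Myc, Fn1, Cd44 and Axin2 kept their day 8 calls at 3 mg/kg in all 22 or 23 alternatives run for each. For Wnt7a this does not lift the limit of a control side near background.

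**Figure D5:**
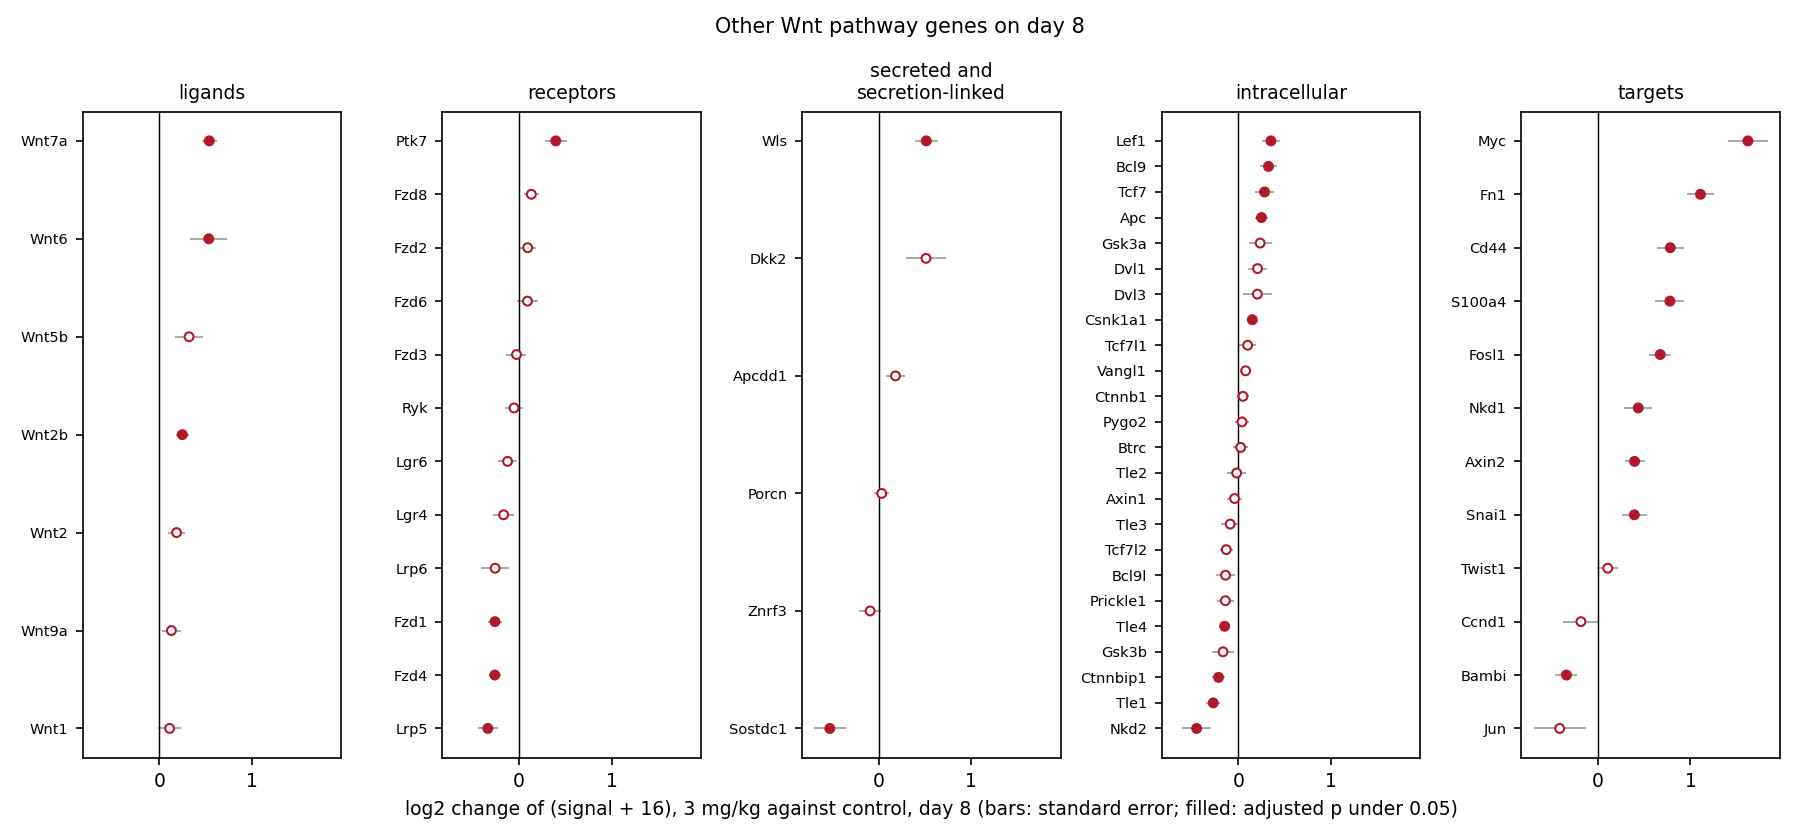
Change (log2 of signal + 16, 3 mg/kg minus control on day 8) of each of the 61 tested genes, grouped as ligands, receptors, secreted and secretion-linked modulators, intracellular genes and targets, with called genes marked. Of the 12 targets 8 were called higher and 1 lower, where 37.3% of all genes were called.

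Of the 12 targets 3 were also called on day 5 at 3 mg/kg, all higher, 25% of the list, where 8.8% of all genes were called. Fosl1, which encodes a Jun partner and was singled out after its value was seen, had a mean signal of 19.4 in 3 mg/kg kidneys and 5.46, below the filter threshold, in controls (0.69 ± 0.12, limma adjusted p = 8.28e-05). It was called on days 3, 5 and 8 in all 22 alternatives, which does not lift the limit of a control side near background. Like Wnt7a and Wnt6, such a gene can enter the test through the dosed kidneys alone. The shares of called targets on days 5 and 8 include Fosl1 and carry that limit. On day 5 Myc was at 0.66 ± 0.22 (limma adjusted p = 0.0438) and Cd44 at 0.58 ± 0.15 (adjusted p = 0.00785). The Cd44 call was lost without 3 mg/kg replicate 1, and the Myc call held in 14 of 23 alternatives. Myc at 1 mg/kg on day 8 had a mean signal of 89.1, against 41.5 in controls (0.87 ± 0.22, adjusted p = 0.0456), and passed in 11 of 23.

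On day 26, when Sfrp2 overlapped the controls, 5 genes of the lists were higher at 3 mg/kg. They were Jun (1.15 ± 0.30, limma adjusted p = 0.0462), Myc (1.00 ± 0.23, 0.0276), the kinase gene Gsk3a (0.51 ± 0.13, 0.0446), the repressor Tcf7l1 (0.42 ± 0.10, 0.0265) and Wnt7a (0.34 ± 0.08, 0.0381), whose signals averaged below the filter threshold in both groups. Of their 22 alternatives (21 for Wnt7a), Jun passed in 7, Myc in 15, Gsk3a in 9, Tcf7l1 in 13 and Wnt7a in 11. The count of 5 was 0 without control replicate 1, and 1 without control replicate 2 or 4 or 3 mg/kg replicate 1, 3 or 4.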

How the data were processed

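The authors deposited linear intensity values from MAS5, a tool named in the submitters' processing notes with no version or settings. A mean that trims 2% of probe sets at each end is 99.9 on every array, so the arrays share a scale. Of 31099 probe sets, 57 controls were left out. Symbols follow the platform annotation and were brought up to date by Entrez number with RefSeq: 20826 probe sets have 1 symbol, 436 several and 9780 none.

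Samples were grouped by the labels, which number them and call each array a biological replicate. Probe sets above the 40th percentile of an array on at least 3 arrays were kept (21829, of which 16155 are named), with the highest-mean probe set for each of 11683 genes. Log2(signal + 16) was fitted over all 12 groups with limma 3.58.1 in R 4.3.3 (trended eBayes), and p-values were adjusted over all genes. The fit was tested on simulated data. Tables and plots were made in Python 3.11.15 with pandas 2.3.3 and matplotlib 3.10.9. The members and gene lists were chosen with earlier results of these data known. From each Wnt list up to 4 called genes with the largest changes in any comparison with control are named, and the 6 genes most like Sfrp2 by each measure. Replicate numbers only name the animals: deviations from group means had a median correlation of 0.0144 between 298 same-numbered pairs and -0.00304 between 1189 others. The alternatives were other offsets, normalizations, filters, probe set rules, variance models, array weights, a fit of the compared groups alone, the actin ratio as a covariate, a replicate block and leaving out each animal. An array has no read depth, and the number of arrays limits the precision.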

Additional observations from a re-analysis of the deposited data

Results flagged for a closer look

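In a check of 55 groups of 4 or more animals for 1 animal far from the others, 3 stood out, where chance gives about 1 in 20. Sfrp2 in replicate 1 of the 3 mg/kg group on day 5 had a signal of 51.8, where the other 4 lay at 117 to 142. Frzb in replicate 2 of the 3 mg/kg group on day 8 had 249.9, where the others lay at 344 to 384. Dkk3 in replicate 1 of the day 8 controls had 26.0, where the others lay at 14.8 to 17.4, and without it the Dkk3 change at 3 mg/kg was 0.60 in place of 0.52.

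With its brightest probe set, the effect of 3 mg/kg on Sfrp1 differed between days by the test of the difference. It was larger on day 8 than on day 5 by 0.50 (limma adjusted p = 0.0304), and the day 26 effect minus the day 8 effect was -0.50 (limma adjusted p = 0.0371). Neither was called with the mean of the probe sets (limma adjusted p = 0.369 and 0.0719) or without some single animals. The second probe set had the larger change on day 5 (0.51 ± 0.18) and not on day 8 (0.19 ± 0.18).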

How the results depend on the processing

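The Sfrp2 change at 3 mg/kg on day 8 was -3.36 with no offset, -1.76 with an offset of 64 and -2.14 with the second probe set, and -2.81 to -2.43 without 1 animal. Its changes on day 26 were near 0 and took either sign without 1 animal (-0.25 to 0.03 at 3 mg/kg, -0.02 to 0.22 at 1 mg/kg). With their own probe sets, Sfrp1 and Dkk3 were called on day 8 at 3 mg/kg in every alternative that held them. Their other probe sets, not put to that test, gave 0.19 ± 0.18 and 0.39 ± 0.10 for Sfrp1, and -0.0397, 0.06 and 0.09 for the 3 of Dkk3, which were never above the filter threshold. The stricter filter at the 60th percentile left out Dkk3, so that the count of called members was 1. On day 5 the count was 1 with the mean of probe sets, through Sfrp1. Without 1 animal it was 0 to 1 on day 3, 0 to 1 on day 5 and 2 to 3 on day 8. The difference of the Sfrp1 effect was 0.41 to 0.58 for day 8 minus day 5 and -0.59 to -0.40 for day 26 minus day 8 without 1 animal. For the Wnt lists at 3 mg/kg, leaving out 1 animal gave 4 to 7 calls on day 3, 1 to 7 on day 5, 21 to 26 on day 8 and 0 to 6 on day 26. The 60th percentile filter gave 2 on day 3, 3 on day 5 and 16 on day 8. No filter gave 3 on day 5 and 3 on day 26, array weights gave 8 on day 5, and a fit of the compared groups alone gave 15 on day 8 and 0 on day 26. On day 26 the count was also 2 with an offset of 64, 0 with quantile normalization, 3 with 75th percentile centring and 1 with the actin ratio as a covariate. Leaving out replicate 1 of the 3 mg/kg group took the day 5 count of 5 to 1, and it was 3 without control replicate 3 or treated replicate 3 or 5. After 1 mg/kg, array weights gave 1 call on day 3. The single call on day 8 was 0 with an offset of 64, quantile normalization, 75th percentile centring, no filter, robust estimation, array weights and the compared groups alone, and 0 to 1 without 1 animal. Where no cause is given, the cause was not tested. With the replicate block, though the numbers do not pair the animals, 2 members and 27 list genes were called at 3 mg/kg on day 8, Sfrp2 was at -2.63, and Wif1 differed between 3 mg/kg and 1 mg/kg on day 5 (-0.37, limma adjusted p = 0.0404), which it did not in the fit without the block (-0.33, adjusted p = 0.098).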
